A study of Mus musculus with 8 samples.

Results

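Lipid droplets store neutral fat as triglyceride, and cells draw on that store by lipolysis. Here 8 genes of this route were followed through single-cell RNA libraries of mouse mesentery and epididymal fat: Plin2, Hilpda, Pnpla2, Abhd5, G0s2, Lipe, Mgll and Aqp7. They were taken by symbol from the gene list of the second sequencing run and matched to the first run by Ensembl identifier, and all 8 were found among the 30406 identifiers that the lists share. All groups came from male mice of the genotype ROSA26-eYFP+/+ Cdh5-CreERT2+, whose endothelial Cre, once tamoxifen activates it, turns on a yellow reporter. Every mouse ate tamoxifen diet for 2 weeks starting at an age of 6 weeks. The diet contrast began at 8 weeks and lasted 12 to 13 weeks, with 5.8% fat in the chow and 60% fat in the high fat diet. Each library pooled the mesentery, or the epididymal adipose tissue, of 6 mice, which was digested in the presence of the transcription inhibitor actinomycin D, and sorted as living cells, with the sort gate not given in the labels. The 4 groups (mesentery on chow, mesentery on high fat diet, adipose on chow, adipose on high fat diet) were each sequenced in 2 independent repeats, called run A and run B below, which gives 8 libraries.

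Lipolysis runs in steps. Pnpla2 (adipose triglyceride lipase, ATGL) takes the first fatty acid from a triglyceride, Lipe (hormone-sensitive lipase) mainly acts on the diglyceride that remains, and Mgll (monoglyceride lipase) frees the last fatty acid and glycerol. Abhd5 (CGI-58) is the co-activator of ATGL, while G0s2 and Hilpda are small proteins that inhibit it, Hilpda being also a gene induced by low oxygen. Plin2 coats lipid droplets in most cell types that hold them and rises when cells take up fat, and Aqp7 is a channel through which glycerol crosses the plasma membrane, best known in adipocytes and in capillaries. In fat tissue, capillary endothelium also carries fatty acids from blood to adipocytes, with Cd36, Fabp4 and the lipase Lpl among the genes of that traffic.

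In the GRCm38 build Plin2 lies at chr4:86648386-86670060, Aqp7 at chr4:41033074-41048139, Lipe at chr7:25379527-25398710 and G0s2 at chr1:193272161-193273217, all on the minus strand. Mgll lies at chr6:88724412-88828360, Hilpda at chr6:29272488-29275446, Pnpla2 at chr7:141455198-141460743 and Abhd5 at chr9:122351608-122381524, all on the plus strand. Promoter windows of 250 bases before the start were available for all 8 genes (12 windows, RefSeq, GRCm38.p6). They were searched on both strands for a direct repeat of AGGTCA spaced by 1 base (the DR1 element that PPAR receptors bind), allowing at most 2 mismatches, and for ACGTG, the core of the element bound by hypoxia-inducible factors. The repeat was found in 3 of the 12 windows, 1 of Plin2 and both of Aqp7, which overlap and share 1 of the matches. It occurs in 3.24% of all 32851 windows of that length. The core ACGTG was found in 4 of the 12 windows, both of Mgll and only 1 each of Hilpda and Lipe, against 16.6% of all windows. A window each of Plin2 and Aqp7 is shown, because these are the only members that carry the repeat (capitals). Both had their highest class median in capillary-like cells, as given below. So did Mgll, Lipe and Abhd5, whose windows hold no such repeat. For Hilpda, the window with the core ACGTG (capitals, 43 bases before the start it precedes) is shown, since the gene's level differed between the runs. That window reaches past the gene start given above, so its match is counted from another start. The other Hilpda window, chr6:29272238-29272487, ends just before the gene start given above and holds no ACGTG.
Plin2, chr4:86670060-86670309, minus strand: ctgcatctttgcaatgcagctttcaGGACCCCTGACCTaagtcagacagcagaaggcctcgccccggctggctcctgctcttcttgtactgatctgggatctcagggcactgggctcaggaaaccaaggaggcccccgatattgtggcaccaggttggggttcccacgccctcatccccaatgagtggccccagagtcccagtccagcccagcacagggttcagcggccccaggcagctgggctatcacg
Aqp7, chr4:41047963-41048212, minus strand: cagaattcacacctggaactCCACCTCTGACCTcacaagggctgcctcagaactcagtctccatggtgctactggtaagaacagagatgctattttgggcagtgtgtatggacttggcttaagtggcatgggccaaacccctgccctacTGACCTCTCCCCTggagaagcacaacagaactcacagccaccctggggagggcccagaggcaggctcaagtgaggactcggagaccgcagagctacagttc
Hilpda, chr6:29272376-29272625, plus strand: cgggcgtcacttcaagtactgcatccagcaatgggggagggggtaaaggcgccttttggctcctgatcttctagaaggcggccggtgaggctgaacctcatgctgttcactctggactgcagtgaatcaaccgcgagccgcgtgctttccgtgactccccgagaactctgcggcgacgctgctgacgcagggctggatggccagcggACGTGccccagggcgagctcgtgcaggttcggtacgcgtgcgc
In Plin2 the repeat covers bases 225 to 213 before the start, and in Aqp7 bases 230 to 218 and 101 to 89. All 3 matches hold 2 mismatches and lie on the strand opposite to the gene, so they read as TGACCT repeats in the sequences printed. A match describes the letters only.

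After filtering, 23117 of 27944 barcodes were used, of which 17603 (76.1%) fell into clusters with endothelial markers. Run A was shallower: its libraries held 3461360 to 6714473 unique molecular identifiers (UMIs, counts of captured RNA molecules) against 18829960 to 36779289 in run B. Marker genes in common use named 7035 cells capillary-like, 3214 arterial-like, 3235 venous-like and 2576 lymphatic-like. A further 165 endothelial cells were named proliferating and entered no class comparison. The clusters were built without the 8 genes and without the lists of lipid, PPAR and hypoxia genes described below. Only 28 to 185 capillary-like cells came from each library of run A, against 1130 to 2569 from each of run B. Levels are given as CPM, the UMIs of a gene scaled to a total of 1e6 UMIs of that class in that library. UMIs of adipocyte marker genes were present in endothelial cells and differed between libraries. How they came there was not tested. The summed level of 10 adipocyte markers (Adipoq, Cfd, Retn and others) in capillary-like cells was 4086 CPM in mesentery and 4399 CPM in adipose on chow in run B, 247 and 92.1 CPM on high fat diet in run B, and 0 to 620 CPM in run A, with all 10 markers at 0 in mesentery on high fat diet of run A. In arterial-like cells it was 867 and 1899 CPM on chow in run B and at most 134 CPM in the other 6 libraries. In mesentery on chow of run B the sum was 123 CPM in T cells, 139 CPM in B cells and 398 CPM in macrophage-like cells. The libraries of 1 group differed by run in depth and in cell makeup, so each result is given by run.

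Plin2, the droplet coat, was highest in capillary-like cells among the 4 endothelial classes compared. Over the 8 libraries its level ran from 100.5 to 442 CPM in capillary-like cells (median 195), from 39.1 to 256 CPM in arterial-like cells (median 97.5), from 34.1 to 118 CPM in venous-like cells (median 46.3) and from 20.9 to 58.0 CPM in lymphatic-like cells (median 46.7). Proliferating endothelial cells, outside these 4 classes, held 82.9 to 951 CPM (median 231) in the 4 libraries with at least 10 such cells. The class order capillary over arterial held in 8 of 8 libraries, and arterial stood over venous in 7 of 8. Each class was set against each other class with the library as a block, by edgeR on summed counts, over 9006 genes. Plin2 was higher in capillary-like than in arterial-like cells by 0.87 ± 0.22 (log2 ± SE, adjusted p = 0.00506), and higher than in venous-like cells by 1.99 ± 0.24 and than in lymphatic-like cells by 2.39 ± 0.25. The gap between venous-like and lymphatic-like cells, 0.40 ± 0.25, did not pass (edgeR adjusted p = 0.215). Plin2 was the only member whose capillary-over-arterial call held with the libraries of run A alone. By limma none of the 3 capillary-over-arterial calls, Plin2, Lipe and G0s2, passed (limma adjusted p = 0.130, 0.659 and 0.213).

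Aqp7, the glycerol channel, followed the same order of medians, with wider gaps to venous-like and lymphatic-like cells. Its level ran from 36.4 to 622 CPM in capillary-like cells (median 276), from 14.2 to 494 CPM in arterial-like cells (median 129), from 0 to 157 CPM in venous-like cells (median 22.7) and from 0 to 12.5 CPM in lymphatic-like cells (median 1.69). Capillary-like cells stood over arterial-like cells in 8 of 8 libraries, yet the difference of 0.69 ± 0.27 did not pass over all genes (edgeR adjusted p = 0.0774). Against venous-like and lymphatic-like cells it was higher in capillary-like cells by 2.61 ± 0.28 and 6.67 ± 0.41. Pooled over libraries, 68.8% of capillary-like cells held at least 1 Aqp7 UMI, 50.3% of arterial-like, 13.5% of venous-like and 0.582% of lymphatic-like cells, at median depths of 3418, 3778, 4156 and 2116 UMIs. T cells, which should lack the gene, held it in 0.240% at a median depth of 3216 UMIs. In the 7 libraries with at least 10 T cells the gene stood at 0 CPM. The T cell share thus rests on too few cells to say how much of the lymphatic share is background RNA. With every cell thinned to 1000 UMIs, which kept 6084 of 7035 capillary-like, 3004 of 3214 arterial-like, 2992 of 3235 venous-like, 2165 of 2576 lymphatic-like and 389 of 416 T cells, the shares were 37.2%, 24.3%, 4.88%, 0.185% and 0% (0 of 389 allows up to 0.771%). Aqp7 also separated the runs: every capillary-like value of run A (36.4 to 112 CPM) lay below every value of run B (440 to 622 CPM).

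Mgll, the last lipase of the route, ran from 649 to 2394 CPM in capillary-like cells (median 1584), from 423 to 1963 CPM in arterial-like cells (median 977), from 104 to 1082 CPM in venous-like cells (median 300) and from 174 to 542 CPM in lymphatic-like cells (median 368). Capillary-like cells stood over arterial-like cells in 7 of 8 libraries, with a difference of 0.47 ± 0.30 that did not pass (edgeR adjusted p = 0.332). It was higher in arterial-like than in venous-like cells by 1.37 ± 0.30 and than in lymphatic-like cells by 1.46 ± 0.31, in 8 of 8 libraries each. Between venous-like and lymphatic-like cells the direction split by run. All 4 libraries of run A were higher in lymphatic-like cells and all 4 of run B in venous-like cells, and the pooled difference was 0.09 ± 0.31. The venous-like cells of the runs were mostly of different clusters, described below.

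Lipe, the hormone-sensitive lipase, split blood from lymphatic endothelium. Its range was 18.2 to 163 CPM in capillary-like cells (median 116), 8.51 to 94.3 CPM in arterial-like cells (median 76.0), 20.3 to 128 CPM in venous-like cells (median 62.1) and 1.05 to 14.7 CPM in lymphatic-like cells (median 6.92). It was lower in lymphatic-like cells than in each blood class in 8 of 8 libraries, by 3.72 ± 0.26 against capillary-like, 3.09 ± 0.27 against arterial-like and 3.12 ± 0.26 against venous-like cells. It was also higher in capillary-like than in arterial-like cells, by 0.63 ± 0.19 (edgeR adjusted p = 0.0159). Arterial-like and venous-like cells differed by -0.04 ± 0.19, with 4 libraries each way (edgeR adjusted p = 0.939).

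Pnpla2, the first lipase, had its highest median in arterial-like cells. It ran from 0 to 260 CPM in capillary-like cells (median 118), from 91.2 to 229 CPM in arterial-like cells (median 176), from 72.7 to 109.7 CPM in venous-like cells (median 89.9) and from 42.6 to 85.9 CPM in lymphatic-like cells (median 60.3). The 0 came from the 29 capillary-like cells of mesentery on chow in run A, where 3 counts would amount to 71.5 CPM. Arterial-like cells were higher than capillary-like cells in 6 of 8 libraries, but the difference of -0.24 ± 0.20 (capillary against arterial) did not pass (edgeR adjusted p = 0.511). The 2 exceptions, at 260 and 253 CPM, were the chow libraries of run B, in which adipocyte markers were highest. Pnpla2 was higher in arterial-like than in venous-like cells by 0.84 ± 0.20 and than in lymphatic-like cells by 1.57 ± 0.21. Its co-activator Abhd5 was low and even, with medians of 30.3, 27.3, 21.6 and 27.9 CPM in the 4 classes in the same order and a full range of 15.9 to 63.8 CPM. It was called only as higher in capillary-like cells, by 0.64 ± 0.15 over venous-like and 0.50 ± 0.16 over lymphatic-like cells.

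G0s2, the inhibitor of ATGL, had another order: lymphatic-like cells were highest in 8 of 8 libraries. Its level ran from 34.8 to 127 CPM there (median 65.0), from 0 to 104 CPM in capillary-like cells (median 16.1), from 0 to 37.8 CPM in arterial-like cells (median 5.72) and from 0 to 18.8 CPM in venous-like cells (median 2.89). Lymphatic-like cells were higher than capillary-like cells by 1.59 on the log2 scale (capillary against lymphatic -1.59 ± 0.33, edgeR adjusted p = 2.20e-04), than arterial-like cells (-2.92 ± 0.36) and than venous-like cells (-4.02 ± 0.39). Among blood classes G0s2 was higher in capillary-like than in arterial-like cells, by 1.33 ± 0.35 (edgeR adjusted p = 0.00621), and than in venous-like cells, by 2.43 ± 0.40. Without the chow libraries of run B, where adipocyte markers were highest, the capillary-over-arterial call of G0s2 and that of Lipe ended and that of Plin2 stayed.

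Hilpda, the other inhibitor, was low in the median library of each class, with high values in a few clusters of run A. It ran from 15.2 to 47.7 CPM in capillary-like cells (median 27.6), from 16.0 to 23.3 CPM in arterial-like cells (median 19.5), from 13.6 to 71.7 CPM in lymphatic-like cells (median 22.7) and from 14.2 to 553 CPM in venous-like cells (median 22.8). The 2 highest venous values came from mesentery in run A, 157 CPM on chow and 553 CPM on high fat diet. Hilpda was called higher in venous-like than in arterial-like cells (arterial against venous -1.17 ± 0.41, edgeR adjusted p = 0.0293) and than in lymphatic-like cells (1.05 ± 0.42, edgeR adjusted p = 0.0449). Both calls ended when cluster 33 was left out, an alternative chosen after seeing the data: the arterial-venous difference became -0.29 ± 0.17 (edgeR adjusted p = 0.236) and the venous-lymphatic one -0.10 ± 0.17 (edgeR adjusted p = 0.694).

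**Figure D1:**
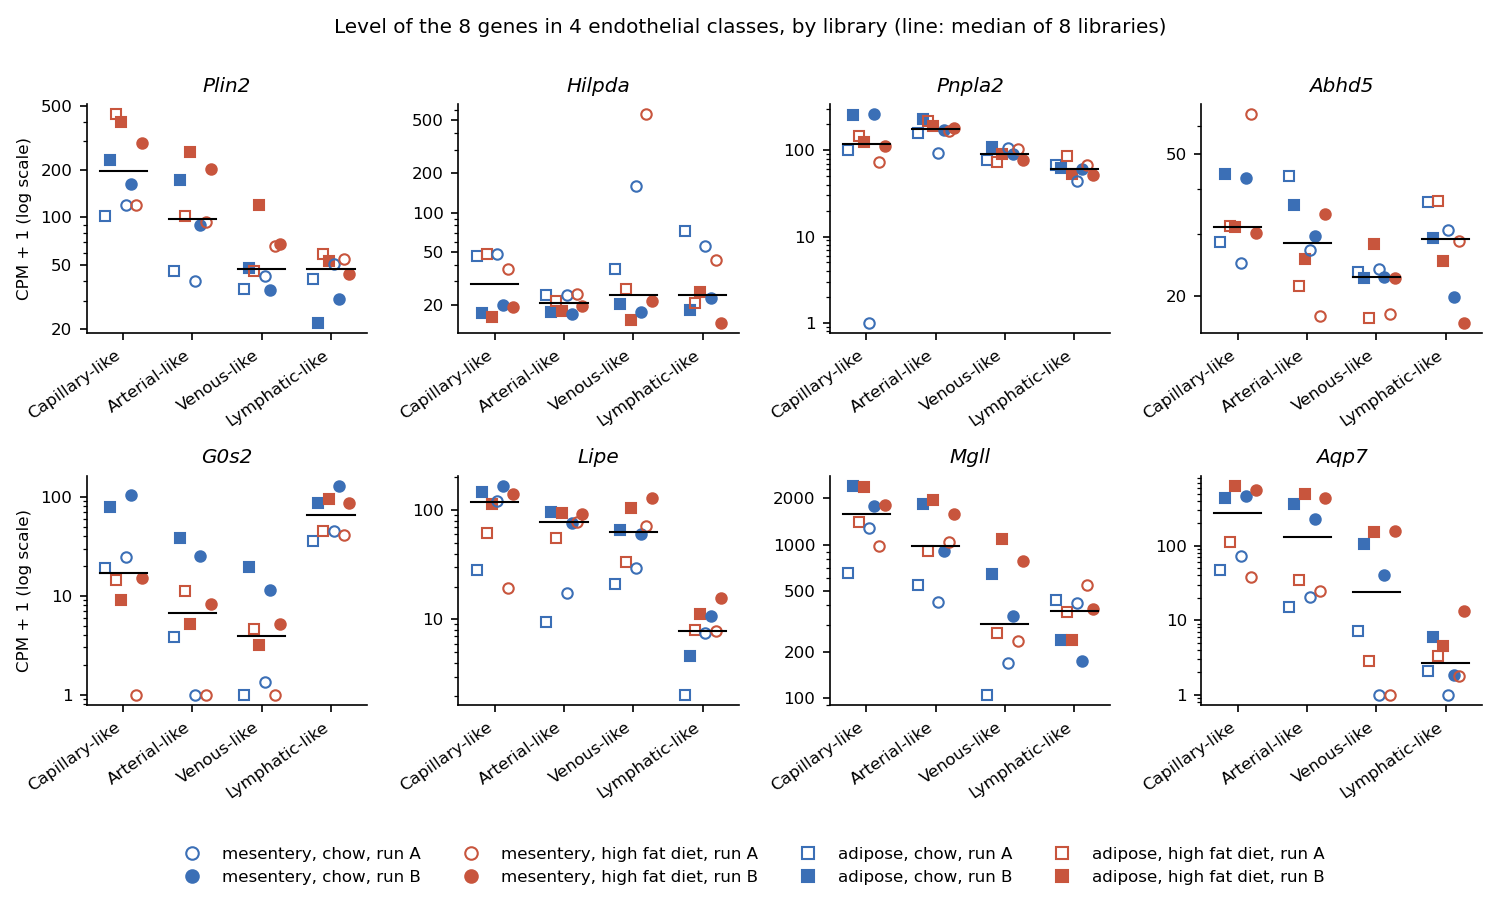
Level of each of the 8 genes (CPM + 1, log axis) in capillary-like, arterial-like, venous-like and lymphatic-like cells; each point is 1 of 8 libraries, and the line is the median of the 8. Plin2 falls from a capillary median of 195 CPM to 46.7 CPM in lymphatic-like cells, G0s2 is highest in lymphatic-like cells (median 65.0 CPM), and Hilpda has 1 venous value at 553 CPM.

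Read against the whole table, the members leaned to the capillary side. Between capillary-like and arterial-like cells 3 of the 8 were called, all higher in capillary-like cells, where 8.52% of the genes tested were called higher and 11.3% lower. Against venous-like cells 7 of 8 were called, all higher in capillary-like cells, with a background of 14.2% higher and 18.7% lower. Against lymphatic-like cells 7 were called, 6 higher and G0s2 lower in capillary-like cells, with 20.1% of genes higher and 22.6% lower. Arterial-like against venous-like cells gave 4 higher and Hilpda lower, beside 14.1% and 16.1% of all genes. Arterial-like against lymphatic-like cells gave 5 higher and G0s2 lower, beside 22.1% and 22.6%. Venous-like against lymphatic-like cells gave 4 higher (Aqp7, Lipe, Pnpla2, Hilpda) and G0s2 lower, beside 21.5% and 18.7%. The median log2 difference of the members in these 6 comparisons was 0.55, 1.24, 1.63, 0.97, 1.49 and 0.57, against medians of all genes between -0.03 and -0.0016. Adipocyte markers moved with these differences, since all 6 of them that could be tested were higher in capillary-like than in arterial-like, venous-like and lymphatic-like cells. In cells that held no adipocyte marker UMI, Plin2, Lipe and Aqp7 were called higher in capillary-like than in arterial-like cells, while G0s2 was tested at 1.09 ± 0.40 and did not pass (edgeR adjusted p = 0.0553).

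Within the classes the members marked particular clusters. Of the arterial-like clusters, cluster 4 (led by Slc26a10, Alox12 and Hey1) held Aqp7 at 539 CPM, Plin2 at 251 CPM and Mgll at 2085 CPM, pooled over libraries. Cluster 3 (Gkn3, Dkk2, Gja5) held 140, 92.0 and 1045 CPM, and the small cluster 29 held 246, 92.9 and 616 CPM. By library, Aqp7 in cluster 4 ran from 38.2 to 94.7 CPM in run A and from 453 to 663 CPM in run B. In a finer clustering (resolution 2.0) the cluster led by Slc26a10, Alox12 and Hey1 (1417 cells) got no class name. Its raised markers and its leading genes pointed to different classes there, so the arterial name of cluster 4 is not firm. Plin2 was higher in cluster 4 than in cluster 3 in 7 of the 8 libraries, the exception being mesentery on chow in run A, with 15 cells of cluster 4 (30.6 against 38.4 CPM). In the mesentery of run B cluster 4 made up 30.4% of arterial-like cells on chow and 54.5% on high fat diet, in run A 16.7% and 23.9%, while in adipose it made up 57.5% and 55.1% in run B and 32.0% and 30.7% in run A. An endothelial cluster with no class name (cluster 19, led by Adh7, Klk10, Klk11 and Hey2) held Aqp7 at 1.3 CPM and Plin2 at 32.8 CPM.

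Venous-like cells were as mixed. Cluster 5 (Ackr1, Cysltr1, Ret) held Aqp7 at 180 CPM, Mgll at 1072 CPM and Lipe at 124 CPM, while cluster 7 (Adgrg6, Vwf) held 2.9, 171 and 32.2 CPM and cluster 8 (Sele, Selp, Vcam1) held 2.6, 187 and 27.1 CPM. Run A gave most of cluster 8 and no cell of cluster 7, and run B gave few cells of cluster 8. Hilpda stood apart in cluster 33, 128 cells led by Glycam1, Fut7, Madcam1 and Chst4, genes of the high endothelial venules through which lymphocytes enter lymphoid tissue. In mesentery of run A it reached 963 CPM on chow (41 cells) and 1202 CPM on high fat diet (19 cells). In run B the same cluster held 5.3 CPM on chow (59 cells) and 27.5 CPM on high fat diet (7 cells), so in this cluster the high level was seen in 1 run only. Another cluster with endothelial markers and no class name (cluster 26, led by Scgb3a1, Ramp3 and Esm1) held Hilpda at 575, 313, 305 and 241 CPM in run A (8 to 21 cells each). Only 23.8%, 25%, 15.8% and 10% of those cells held a Hilpda UMI, so these levels rest on very few cells. In run B cluster 26 held 311 CPM in adipose on chow (32 cells, 46.9% with a Hilpda UMI) and 29.2 CPM in mesentery on chow (184 cells). It held 0 CPM in the high fat libraries (13 and 2 cells), so high Hilpda was not limited to run A there. Hilpda was higher in run A in T cells too, 77.1 to 633 CPM in its 4 libraries against 11.0 to 20.5 CPM in the 3 libraries of run B with enough T cells, and in cluster 5, where run A ranged from 46.1 to 248 CPM and run B from 13.1 to 19.7 CPM. Every library of run A was shallower than every library of run B, but the mesentery cells of cluster 33 were of like depth, with median UMIs of 8796 and 9321 in run A and 10580 and 8217 in run B. Thinned to 1000 UMIs, 46.2% and 68.4% of them held a Hilpda UMI on chow and high fat diet in run A (39 and 19 cells), against 0% and 14.3% in run B (59 and 7 cells; 0 of 59 allows up to 5.08%).

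**Figure D2:**
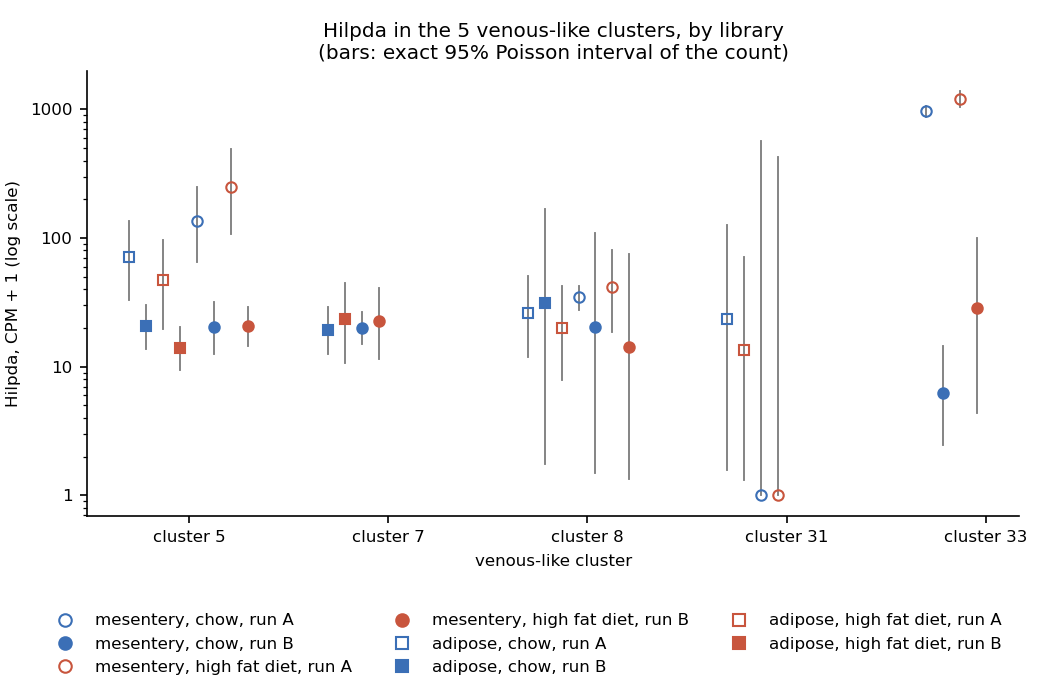
Hilpda (CPM + 1, log axis) in the 5 venous-like clusters for each library with cells enough to show; bars are exact 95% Poisson intervals of the count and cover counting error only. In cluster 33 the mesentery libraries of run A stand at 963 and 1202 CPM and those of run B at 5.3 and 27.5 CPM.

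Outside the endothelium, the members differed by cell type, and not all stood above the endothelial classes. The adipocyte-like cluster (688 cells, 380 of them from mesentery and 295 from adipose on chow in run B) was compared with the endothelial classes within those 2 libraries. Its Pnpla2 was 1375 CPM in mesentery and 970.4 CPM in adipose, its G0s2 1393 and 1097 CPM, its Lipe 574 and 554 CPM and its Abhd5 121 and 112 CPM, each above every endothelial class of the same library. Its Plin2, 340 and 247 CPM, was also above the 160.4 and 229 CPM of capillary-like cells. Mgll (1201 and 1218 CPM) and Aqp7 (116 and 108 CPM) were below the capillary-like cells of the same libraries (1776 and 2394 CPM for Mgll, 457 and 440 CPM for Aqp7). Plin2 in macrophage-like cells differed widely between libraries. In run B it was 127 CPM on chow and 1238 CPM on high fat diet in mesentery, and 323 and 1356 CPM in adipose. In run A it was 132 and 296 CPM in mesentery and 212 and 2300 CPM in adipose, from 4 to 10 cells a library. It was higher on high fat diet in all 4 pairs, a difference that was not tested. On chow in mesentery of run B it was below the 160.4 CPM of capillary-like cells. G0s2 was also found in mural-like cells (175 CPM) and in 3 of 4 fibroblast-like clusters (178 to 352 CPM; cluster 27 held 1.9 CPM).

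The diet comparison asked which of these genes change in the endothelium when mice eat a high fat diet. In the tests that compare the 2 libraries of each group with no regard to run, no gene at all was called by edgeR, in either tissue, over all endothelial cells (0 of 13339 genes tested, 0%), capillary-like cells (0 of 10622, 0%) or arterial-like cells (0 of 9473, 0%), at most 320 genes falling under an unadjusted p of 0.05 and DESeq2 calling at most 6. The runs pair the samples, so the same comparisons were also fitted with the run as a block. There G0s2 fell and Plin2 rose in capillary-like cells of adipose, G0s2 fell in capillary-like cells of mesentery, and Plin2 rose in arterial-like cells of mesentery.

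Plin2 in capillary-like cells of adipose was 100.5 CPM on chow and 442 CPM on high fat diet in run A, and 229 and 397 CPM in run B. Both high fat libraries stood above both chow libraries, so the groups did not overlap. So few libraries can separate this way by chance, and the share of all genes that do so is not given here. The same limit holds below, where groups do not overlap or a gene differs in the same direction in every pair. The log2 change was 1.42 ± 0.60 without the block (edgeR adjusted p = 1) and 1.496 ± 0.34 with it (edgeR adjusted p = 0.00188). In capillary-like cells of mesentery Plin2 was 119 and 118 CPM on chow and high fat diet in run A, and 160.4 and 293 CPM in run B. The groups overlapped, and the change of 0.69 ± 0.37 with the block did not pass (edgeR adjusted p = 1.00). In run A the mesentery values rest on 29 and 28 cells and on 5 and 13 UMIs.

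In arterial-like cells Plin2 was higher on high fat diet in each of the 4 pairs of tissue and run. In mesentery it was 39.1 CPM on chow and 93.1 CPM on high fat diet in run A, and 88.6 and 201 CPM in run B. The lowest high fat value was above the highest chow value, by 93.1 to 88.6 CPM. The change was 1.17 ± 0.68 without the block (edgeR adjusted p = 1.00) and 1.21 ± 0.26 with it (edgeR adjusted p = 0.0370). In adipose it was 45.4 and 102 CPM in run A and 171 and 256 CPM in run B, which overlap, and the change of 0.77 ± 0.23 with the block did not pass (edgeR adjusted p = 0.593). Over all endothelial cells Plin2 was 53.3 and 73.4 CPM (run A) and 80.4 and 211 CPM (run B) in mesentery, and 42.6 and 114 CPM (run A) and 189 and 321 CPM (run B) in adipose. It was higher on high fat diet in all 4 pairs, with changes of 0.87 ± 0.34 and 1.06 ± 0.34 with the block that did not pass (edgeR adjusted p = 0.437 and 1.00).

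G0s2 in capillary-like cells of mesentery was 23.8 CPM on chow and 0 CPM on high fat diet in run A, and 104 and 14.0 CPM in run B. In adipose it was 18.3 and 13.5 CPM in run A, and 77.3 and 8.16 CPM in run B. Every chow library stood above every high fat library of its tissue, although the run A values rest on 1, 0, 2 and 4 UMIs, and 3 counts in the mesentery library on high fat diet would amount to 27.3 CPM. The change was -2.74 ± 0.88 in mesentery and -2.41 ± 0.87 in adipose without the block (edgeR adjusted p = 1), and -2.85 ± 0.47 (edgeR adjusted p = 6.49e-07) and -2.81 ± 0.48 (edgeR adjusted p = 2.21e-06) with it. The adipocyte marker sum moved the same way, from 620 to 0 CPM (run A) and from 4086 to 247 CPM (run B) in mesentery, and from 530.0 to 101 CPM (run A) and from 4399 to 92.1 CPM (run B) in adipose. In the same fits with the block 9 of the 10 adipocyte markers fell in each tissue. Capillary-like cells also differed by diet in their clusters. Cluster 13, with a pooled marker sum of 9176 CPM, was found almost only on chow. On chow in run B it gave 210 of 1130 capillary-like cells of mesentery and 441 of 2569 of adipose. On high fat diet in run B the counts were 4 of 1219 and 0 of 1801. Fits on cluster 1 alone, which leave these cells out, are given below. G0s2 stood at 1183 CPM in adipocyte-like cells, and in capillary-like cells without an adipocyte UMI it was too low for the diet test. Over all endothelial cells without an adipocyte UMI its change with the block was 0.34 ± 0.51 in mesentery and 0.13 ± 0.53 in adipose, which did not pass (edgeR adjusted p = 0.873 and 1.00). In adipose of run B that filter kept 839 of 4013 endothelial cells on chow and 2679 of 3226 on high fat diet, and in mesentery 1848 of 3595 and 1590 of 2435. With no such filter G0s2 over all endothelial cells already went opposite ways by run. Its difference in log2 of CPM + 1 was 1.53 (run A) and -1.45 (run B) in mesentery, and 0.46 and -2.38 in adipose. These sums also hold lymphatic-like cells, where G0s2 was highest. They cannot show whether the fall in capillary-like cells remains in cells without adipocyte markers.

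**Figure D3:**
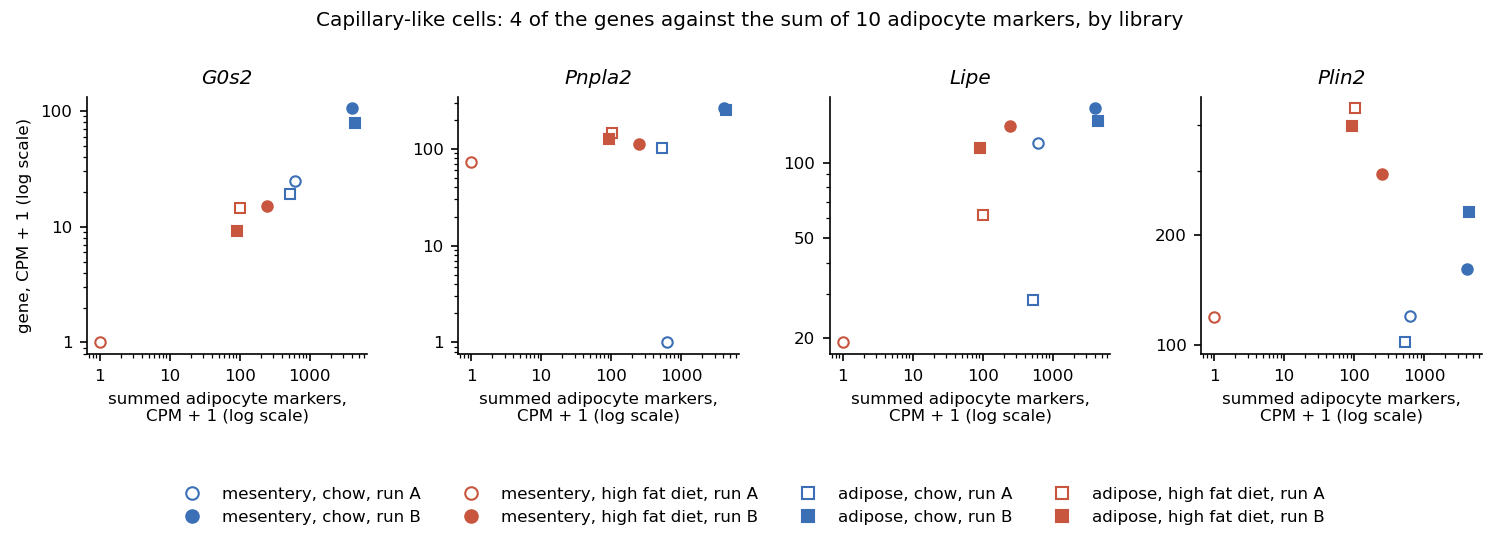
G0s2, Pnpla2, Lipe and Plin2 (CPM + 1, log axis) in capillary-like cells against the summed level of 10 adipocyte markers in the same cells (CPM + 1, log axis); each point is 1 library. G0s2 is highest, at 77.3 and 104 CPM, in the 2 libraries with marker sums of 4399 and 4086 CPM, while Plin2 is highest in adipose on high fat diet, where the sums are 101 and 92.1 CPM.

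These calls were set against their background and against narrower cell sets. With the run as a block, 0.800% of genes were called lower in capillary-like cells of mesentery, 0.800% lower and 0.471% higher in those of adipose, and 0.232% higher in arterial-like cells of mesentery. In cluster 1 alone, the largest capillary-like cluster, G0s2 fell in mesentery (-2.04 ± 0.52, edgeR adjusted p = 0.0151) and in adipose (-2.50 ± 0.54, edgeR adjusted p = 5.37e-04), and Plin2 rose in adipose (1.56 ± 0.41, edgeR adjusted p = 0.0170), again with the block. The adipocyte marker sum of cluster 1 fell as well. In mesentery it went from 336 to 0 CPM (run A) and from 2116 to 254 CPM (run B). In adipose it went from 317 to 122 CPM (run A) and from 2976 to 84.8 CPM (run B). In capillary-like cells with no adipocyte UMI (22 to 163 in run A and 163 to 1430 in run B) the adipose change of Plin2 was 1.46 ± 0.36, without passing (edgeR adjusted p = 0.134). The filter kept unlike shares of cells by diet. In adipose of run B it kept 198 of 2569 capillary-like cells on chow, with 527834 of 16008306 UMIs, and 1430 of 1801 on high fat diet, with 4979396 of 6985310 UMIs. Plin2 in arterial-like cells with no adipocyte UMI rose in mesentery (1.70 ± 0.29, edgeR adjusted p = 0.00793) and in adipose (1.52 ± 0.27, edgeR adjusted p = 0.0134). In run B these were 292 of 513 cells on chow and 447 of 640 on high fat diet in mesentery, and 227 of 743 and 628 of 741 in adipose.

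The calls were those of edgeR. With the same block DESeq2 and limma gave changes of the same sign but called none of the 4 (DESeq2 adjusted p = 0.832 and 1 for G0s2 in capillary-like cells of mesentery and adipose, 0.467 for Plin2 in those of adipose and 0.0520 for Plin2 in arterial-like cells of mesentery; limma adjusted p = 0.238, 0.130, 0.769 and 0.146).

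Each of these calls rests on particular libraries, and leaving 1 out leaves a lone library that is assumed to vary like the other groups. With the block, the fall of G0s2 was no longer called in mesentery without the mesentery chow or high fat library of run B. In adipose the call of G0s2 ended without either chow library of run B or without the adipose high fat library of run B, where the change was -0.05. The rise of Plin2 in capillary-like cells of adipose ended without either adipose library of run A or either chow library of run B, and its change ranged from 0.91 to 2.26 over the 8 such fits. The rise of Plin2 in arterial-like cells of mesentery ended without the mesentery chow library of run B or either mesentery high fat library, and its change ranged from 1.00 to 1.45.

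**Figure D4:**
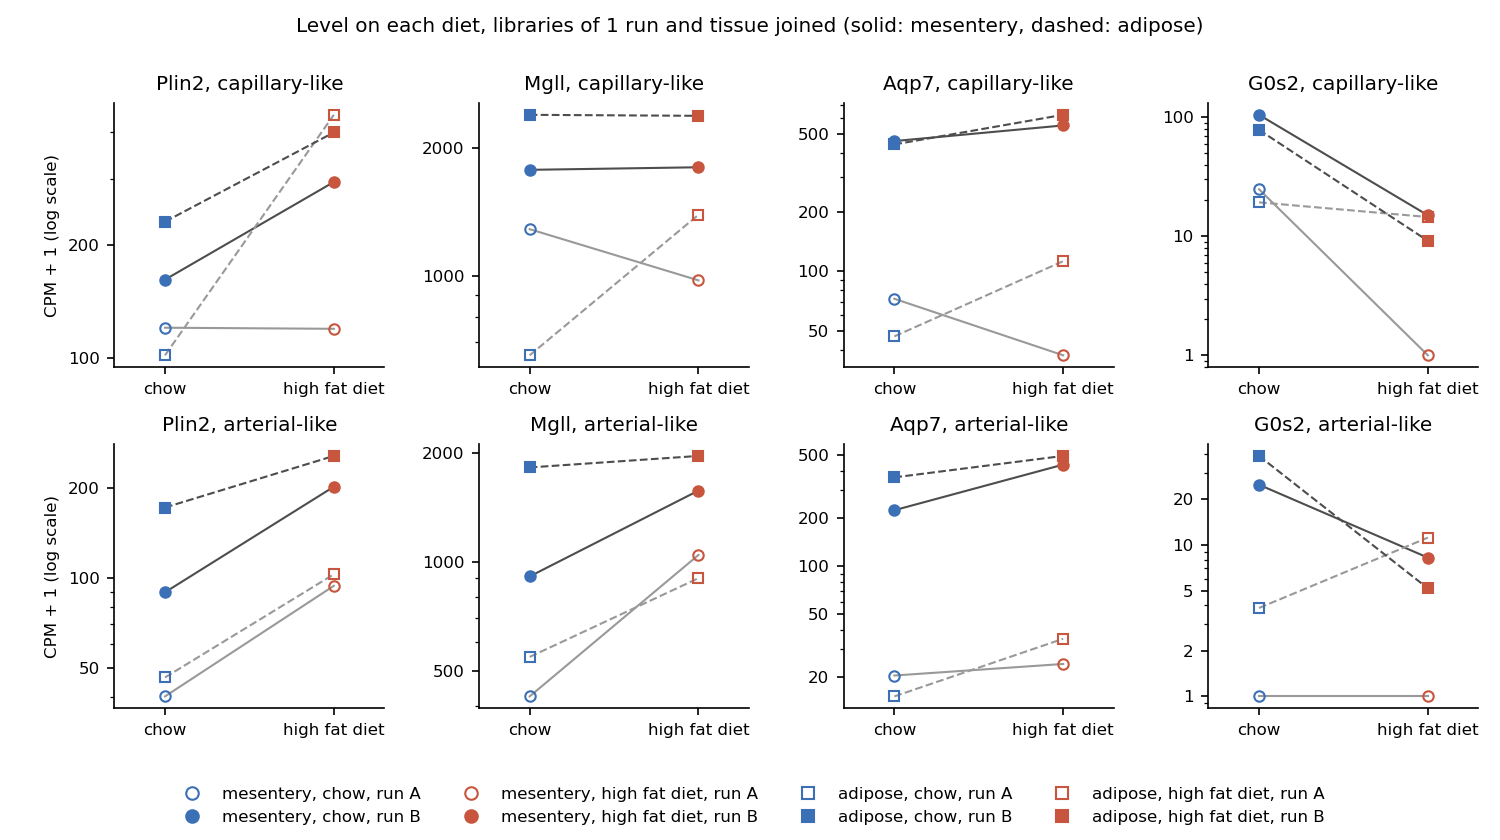
Plin2, Mgll, Aqp7 and G0s2 on chow and on high fat diet (CPM + 1, log axis) in capillary-like cells (upper row) and arterial-like cells (lower row); each line joins the 2 libraries of 1 run and tissue. All 4 lines of Plin2 rise in arterial-like cells, and all 4 lines of G0s2 fall in capillary-like cells.

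Mgll and Aqp7 in arterial-like cells were higher on high fat diet in all 4 pairs without passing the test over all arterial-like cells. Mgll was 423 and 1044 CPM (run A) and 910 and 1574 CPM (run B) in mesentery, and 545 and 900.2 CPM (run A) and 1824 and 1963 CPM (run B) in adipose. Its change with the block was 1.03 ± 0.23 in mesentery (edgeR adjusted p = 0.0559) and 0.41 ± 0.23 in adipose. Aqp7 was 19.5 and 23.3 CPM (run A) and 224 and 435 CPM (run B) in mesentery, and 14.2 and 34.0 CPM (run A) and 362 and 494 CPM (run B) in adipose. Its change with the block was 0.87 ± 0.27 in mesentery (edgeR adjusted p = 0.282) and 0.61 ± 0.26 in adipose. The share of cluster 4, given above, was also larger on high fat diet in mesentery. Within cluster 3 of mesentery alone Mgll rose by 1.08 ± 0.19 (edgeR adjusted p = 0.00292), Aqp7 by 1.29 ± 0.31 (edgeR adjusted p = 0.0392) and Plin2 by 1.32 ± 0.30 (edgeR adjusted p = 0.0289) with the block. Within cluster 4 of mesentery the changes of Mgll, Aqp7 and Plin2 were 0.81 ± 0.33, 0.37 ± 0.38 and 0.80 ± 0.37, and none passed (edgeR adjusted p = 1.00 each). Both cluster fits were added after seeing the data.

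**Figure D5:**
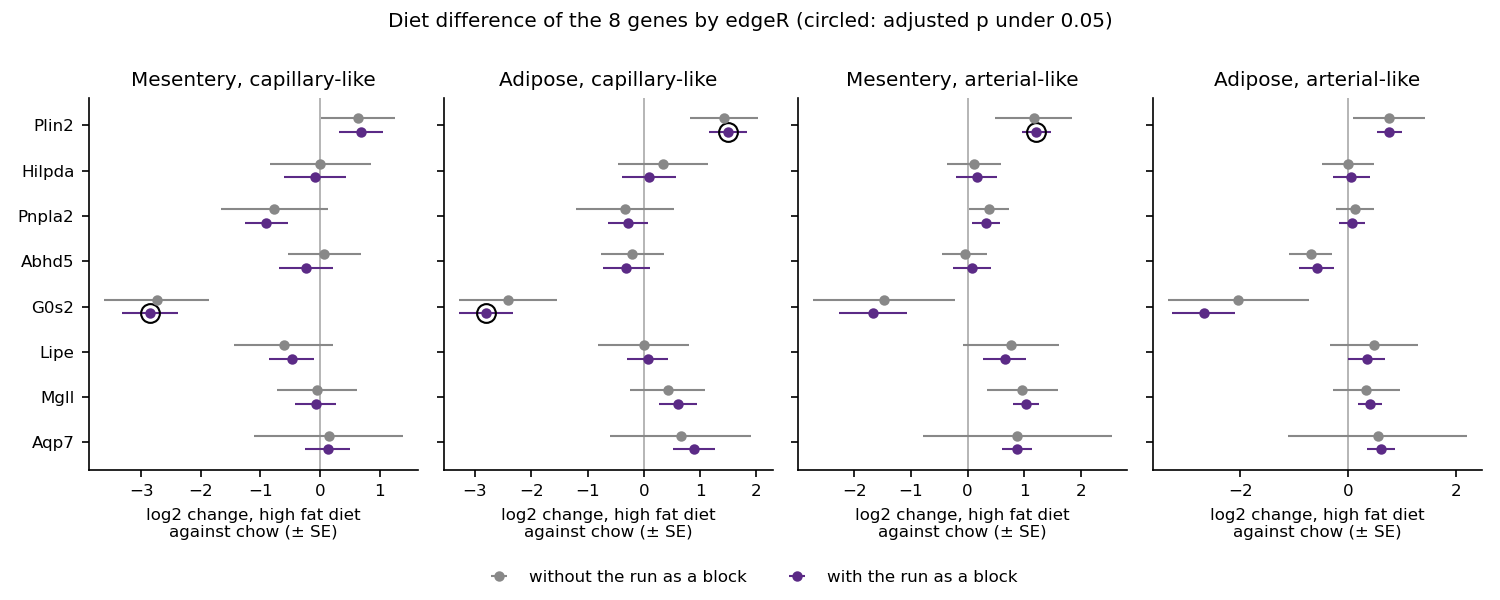
Log2 change on high fat diet against chow of the 8 genes in capillary-like and arterial-like cells of mesentery and adipose by edgeR (bars: SE), without and with the run as a block; circles mark adjusted p under 0.05. The circled changes are G0s2 in capillary-like cells of both tissues, Plin2 in those of adipose (1.496) and Plin2 in arterial-like cells of mesentery (1.21).

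The other members did not pass in any diet comparison, with or without the block. Pnpla2 in capillary-like cells was 0 and 72.9 CPM (run A) and 260 and 111 CPM (run B) on chow and high fat diet in mesentery, and 100.5 and 145 CPM (run A) and 253 and 125 CPM (run B) in adipose. It went opposite ways in the 2 runs, and in run B it fell along with the adipocyte markers. Lipe in capillary-like cells was 119 and 18.2 CPM (run A) and 163 and 139 CPM (run B) in mesentery, and 27.4 and 60.8 CPM (run A) and 145 and 114 CPM (run B) in adipose, with overlapping groups in each tissue. In venous-like cells, whose diet difference was not tested, Lipe was higher on high fat diet in all 4 pairs: 28.2 and 69.8 CPM and 59.9 and 128 CPM in mesentery, and 20.3 and 32.7 CPM and 64.2 and 102 CPM in adipose, run A first. The venous clusters differed by diet as well: in run B cluster 5, with the most Lipe, made up 22.3% of venous-like cells on chow and 74.7% on high fat diet in mesentery, and 49.9% and 80.2% in adipose. Within cluster 5 Lipe was 127 and 158 CPM in mesentery and 103 and 119 CPM in adipose in run B. In run A it was 121 and 92.9 CPM in mesentery, from 9 and 3 UMIs, and 46.9 and 59.2 CPM in adipose. Hilpda in arterial-like cells stayed between 16.0 and 23.3 CPM in all 8 libraries. Abhd5 in arterial-like cells was 42.6 and 20.4 CPM (run A) and 35.1 and 24.5 CPM (run B) on chow and high fat diet in adipose, and it went opposite ways by run in mesentery.

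Between the tissues no member was called on chow or on high fat diet, in all endothelial, capillary-like or arterial-like cells (0% of genes called in each of the 6 comparisons by edgeR without the block, at most 509 genes under an unadjusted p of 0.05, and at most 88 genes and no member called by DESeq2). Mgll over all endothelial cells on chow was 224 CPM in mesentery against 374 CPM in adipose in run A and 714 against 1987 CPM in run B. Capillary-like cells, in which Mgll was highest, were 29 of 1293 endothelial cells in mesentery and 74 of 1348 in adipose on chow in run A, and 1130 of 3595 and 2569 of 4013 in run B. Within capillary-like cells on chow the Mgll difference was 0.07 ± 0.35 with the block (edgeR adjusted p = 1). Over all endothelial cells the log2 difference of mesentery against adipose was -1.30 ± 1.01 without the block (edgeR adjusted p = 1.00) and -1.11 ± 0.24 with it (edgeR adjusted p = 0.110). DESeq2 with the block called it, as it called the rise of Mgll with diet in mesentery. On high fat diet Mgll was 506 against 556 CPM in run A and 1408 against 1850 CPM in run B. Plin2 in capillary-like cells on high fat diet was lower in mesentery than in adipose in both runs, 118 against 442 CPM and 293 against 397 CPM, a difference of -1.15 ± 0.34 with the block (edgeR adjusted p = 0.191). No member's diet change was shown to differ between tissues (0% of genes called in each of the 3 interaction tests by edgeR, at most 88 genes under an unadjusted p of 0.05, and 0 called by DESeq2). For Plin2 in capillary-like cells the interaction was -0.79 ± 0.86 without and -0.81 ± 0.49 with the block, and for Mgll over all endothelial cells it was 0.94 ± 1.41 and 0.82 ± 0.34 (edgeR adjusted p = 1.00 for both genes).

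The wider route was read from lists of related genes. Of 46 further genes of lipid droplets, lipolysis and glycerol, 45 were in the files and 30 could be tested in capillary-like cells. With the block, 6 fell and 0 rose with high fat diet in each tissue, where 0.800% of all genes tested fell. Plin1, Plin4, Cidec and Adrb3 were among them. These are genes of adipocytes, and Plin1, Cidec and Adrb3 are also on the adipocyte marker list. Plin1, the adipocyte droplet coat, was 61.2 and 58.8 CPM in capillary-like cells of mesentery and adipose on chow in run B, 3.63 and 3.44 CPM on high fat diet, and 0 to 9.14 CPM in run A. Cidec, which fuses droplets, was 108 and 143 CPM on chow and 28.0 and 15.9 CPM on high fat diet in run B. In arterial-like cells 25 of these genes could be tested, and with the block 0 were called in mesentery and 1, Cidec, fell in adipose, where 0.169% of all genes fell. Without the block 0 of them were called in any diet comparison.

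Of 15 PPAR target genes, 13 could be tested in capillary-like and in arterial-like cells. Angptl4, a secreted inhibitor of lipoprotein lipase that fasting and fatty acids induce, was the only one called with diet, and only with the block. It rose in capillary-like cells of mesentery and adipose and in arterial-like cells of mesentery, where 0.395%, 0.471% and 0.232% of all genes rose. In capillary-like cells it was 214 CPM on chow and 246 CPM on high fat diet in mesentery of run A, and 133 and 419 CPM in run B. In adipose it was 137 and 449 CPM in run A and 301 and 518 CPM in run B, so that it was higher on high fat diet in each pair, as Plin2 was in 3 of the 4. In arterial-like cells of mesentery Angptl4 was 6.51 and 23.3 CPM in run A and 46.5 and 222 CPM in run B. Cd36 and Fabp4, the fatty acid carriers, were not called with diet. Among the classes 5 of 12 PPAR targets were higher in capillary-like than in arterial-like cells and 0 lower, beside 8.52% and 11.3% of all genes, and 7 were higher and 1 lower than in venous-like cells, beside 14.2% and 18.7%. All 6 adipocyte markers that could be tested were higher in capillary-like cells in the same fits.

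Of 15 hypoxia-induced genes found, 14 could be tested in capillary-like cells, and with the block 1 was called with diet, Bnip3, which fell in mesentery. Between capillary-like and arterial-like cells 2 of 13 were higher (Egln1 and Adm) and 2 lower (Vegfa and Ddit4), beside 8.52% and 11.3% of all genes. Between capillary-like and venous-like cells 3 were higher and 6 lower, beside 14.2% and 18.7%.

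The genes most like each member in their pattern over classes were named from 32 sums (4 classes in 8 libraries, log2 of CPM + 1 centred within each library, 6431 genes of at least 20 CPM). Points of 1 library share its depth and any free RNA, so the coefficients are descriptions. Aqp7 was most like Rgcc (Pearson r = 0.961), one of the capillary markers, and then Adgrl4 (0.959) and Ctnnbip1 (0.941). Plin2 was most like Itpkb (0.964), Ercc1 (0.950) and Rfxap (0.929), Mgll like Rfxap (0.926), Plekhg5 (0.919) and Knop1 (0.917), and Pnpla2 like Kif26a (0.960), Mkrn1 (0.955) and Ppp1r16b (0.945). Lipe was most like Cd38 (0.948), Unc45b (0.947) and Inppl1 (0.935). The coefficients were lower for G0s2 (Rgs7bp 0.867, Dlg1 0.865, Mfsd4a 0.864), Abhd5 (Yaf2 0.853, Sem1 0.848, Ngdn 0.823) and Hilpda (Adamts4 0.720, Pnrc1 0.695, Ssh1 0.681). Among the members themselves Mgll and Aqp7 had 0.893, Mgll and Plin2 0.887, and Aqp7 and Plin2 0.842.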

How the data were processed

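Per the labels' protocols, living cells were captured with 10x Genomics 3′ v3.1 chemistry at about 5000 cells per library. For each library the authors deposited raw UMI counts, genes by barcodes. Per the file headers these came from Cell Ranger 3.0.2 (run A) and 5.0.0 (run B). The submitters' processing notes name mm10 and Seurat 4.3.0 with no role. The sources used here do not name the annotation or the authors' own filters on cells.

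Counts were joined on the 30406 identifiers shared by the runs (31053 in run A, 32285 in run B), which leaves a gene's value open to differences between the 2 annotations. Cells with at least 500 UMIs, 300 genes and at most 10% mitochondrial UMIs were kept (23970). Doublets were scored with scanpy 1.11.5 (Scrublet), and since the automatic threshold marked only 46 cells, the highest scores were removed at 0.8% per 1000 barcodes, 853 cells (3.56%). Cells were clustered (2000 variable genes without the members and lists, 30 components, 20 neighbours, Leiden resolution 1.0 with leidenalg 0.10.2, 37 clusters) and named from marker genes, with at least 3 raised markers. Before clustering, genes were scaled within each run and the components were aligned between the runs by a Harmony-type correction. Which cells of the 2 runs share a cluster therefore depends on that alignment. The 3 endothelial clusters that carried adipocyte or mural genes (1471 cells) were left out of the endothelial sums, by a rule set after seeing the data. On chow in run B these clusters held 398 cells in mesentery and 798 in adipose, and on high fat diet 90 and 110. Of the endothelial cells in the sums, 1378 had no class name and 165 were named proliferating. Names rebuilt here may differ from the authors'. Libraries of 1 pair shared at most 10 barcodes.

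UMI counts were summed per library and class and tested with edgeR 4.0.16 (TMM, quasi-likelihood, Benjamini-Hochberg over all genes tested, called at an adjusted p under 0.05), in R 4.3.3. All 8 members passed the filter on low counts in each comparison as fitted there, while in some alternatives on fewer cells, libraries or UMIs G0s2, Abhd5 or another member was too low to be tested. Group comparisons used 1 mean per group. The run as a block was an alternative. The labels say the experiment was repeated as a whole, and same-run libraries deviated together from their group means (r of 0.756 to 0.895 over all endothelial cells, 0.312 to 0.593 in capillary-like and 0.667 to 0.769 in arterial-like cells), so the runs pair the samples and blocked values are printed where they change a call. With 2 libraries per group, each a pool of 6 mice, p-values measure the spread between these pools. DESeq2 1.42.0 and limma 3.58.1 were alternatives. The scripts were tested on simulated data. Poisson intervals and the limit set by 3 counts cover counting error only.

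Of each list, the genes called in a comparison were named, at most 4 by smallest p; for likeness, the 3 genes with the highest correlation. The members and the lists were chosen with earlier results of these data known.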

Additional observations from a re-analysis of the deposited data

Results flagged for a closer look

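The 8 genes were each screened over all endothelial cells and in the 4 classes. In 3 cases the diet difference went 1 way in both mesentery pairs and the other way in both adipose pairs. The split was not tested on these values, and so few signs can also fall this way by chance. The values are log2 of CPM + 1 on high fat diet minus chow, within a run. Hilpda over all endothelial cells differed by 0.10 (run A) and 0.0061 (run B) in mesentery and by -0.996 and -0.19 in adipose, a gap between tissue means of 0.64. Both mesentery values are near 0, and the edgeR interaction over all endothelial cells was 0.76 ± 1.75 (adjusted p = 1). Hilpda in venous-like cells differed by 1.81 and 0.26 in mesentery and by -0.51 and -0.41 in adipose, a gap of 1.49. Its highest value, 553 CPM in mesentery on high fat diet of run A, came with cluster 33. G0s2 in lymphatic-like cells differed by -0.11 and -0.55 in mesentery and by 0.33 and 0.14 in adipose, a gap of -0.57, with 33 to 154 UMIs behind each level.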

How the results depend on the processing

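Calls between the groups depended on fitting the run as a replicate block: edgeR without a block called 0 of the 8 members in every comparison (adjusted p under 0.05). With the block it called 1 member for diet in mesentery and 2 for diet in adipose in capillary-like cells, and 1 for diet in mesentery in arterial-like cells, and the block changed no other call of members. The replicate block also gave 127 genes (42 higher, 85 lower), 135 (50 and 85) and 48 (22 and 26) in those comparisons against 0, and 11 and 6 for diet in mesentery and adipose over all endothelial cells. In capillary-like cells the block also gave 1 (mesentery) and 2 (adipose) members with a mitochondrial limit of 20%, with doublets kept, at resolution 2.0 and in cluster 1 alone, and with the 20% limit it gave 1 for tissue on high fat diet. In arterial-like cells the block gave 2 for diet in mesentery with the 20% limit, with doublets kept, at resolution 2.0 and in cells with no adipocyte UMI, and 3 in cluster 3 alone. For diet in adipose it gave 1 with the 20% limit, 1 in cluster 4 alone and 2 in cells with no adipocyte UMI. DESeq2 with the block called 1 member (Mgll) for diet in mesentery over all endothelial cells, 1 for tissue on chow there, and 1 for diet in mesentery in arterial-like cells, and limma with the block called 0 in every group comparison. The combinations with the block, the single clusters, the fits on 1 run and the fits without both chow libraries of run B or without cluster 33 were chosen after seeing the data. So were the rule that left out the 3 clusters with adipocyte or mural genes and the alternative that kept them.

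Between classes, the members called for capillary-like against arterial-like cells were 3, but 0 by limma, 6 at resolution 2.0, 1 in run A alone and 1 without both chow libraries of run B. Against venous-like cells they were 7, but 4 in run A alone and 4 without both of them. Against lymphatic-like cells they were 7, and 4 in run A alone, and for arterial-like against venous-like cells 5, and 3 in run A alone. Some log2 differences changed sign: Pnpla2 between capillary-like and venous-like cells (-0.19 in run A), Hilpda between capillary-like and lymphatic-like cells (-0.037 by DESeq2, -0.17 without cluster 33, -0.12 in run B), Lipe (0.0079 in run B) and G0s2 (-0.40 at resolution 2.0) between arterial-like and venous-like cells, and Hilpda (0.064 when cells were thinned to 1000 UMIs) and Abhd5 (-0.22 in run A) between arterial-like and lymphatic-like cells. Between venous-like and lymphatic-like cells, signs changed for Mgll (-0.21 in cells with no adipocyte UMI, -1.09 in run A, -0.23 without both chow libraries of run B), Hilpda (-0.10 without cluster 33, -0.069 in run B) and Abhd5 (0.16 in run B).

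Leaving out 1 library in turn, with or without the block, moved the members called between 0 and 1 for diet in mesentery and for tissue on chow over all endothelial cells, for diet in mesentery and tissue on high fat diet in capillary-like cells, and for diet in adipose and tissue on chow in arterial-like cells. The range was 0 to 2 for diet in adipose in capillary-like cells and for diet in mesentery in arterial-like cells, and 1 to 4 for capillary-like against arterial-like cells, lowest without mesentery on chow of run B. The library left alone in its group is then assumed to vary like the others. Diet differences (log2) ranged over both signs for Mgll in adipose (-1.02 to 1.65 over all endothelial cells, -0.28 to 1.34 in arterial-like cells), Plin2 (-0.30 to 1.15 in mesentery capillary-like, -0.014 to 1.95 in adipose arterial-like cells), Aqp7 (-2.38 to 3.46 in mesentery and -2.36 to 4.17 in adipose arterial-like cells) and G0s2 (-7.63 to 6.29 and -3.11 to 2.56 in the same cells). The lowest value came without the high fat diet library of run B of that tissue, except for G0s2 in adipose, where it came without that of run A. The highest came without chow of run B, except for Plin2 in mesentery (without high fat diet of run A) and G0s2 in adipose (without high fat diet of run B). A fitted value of G0s2 or Aqp7 against a library at 0 depends on the prior count. Over all endothelial cells the Mgll difference between tissues on chow ran from -2.25 to 0.25 and its interaction from -0.61 to 2.11. Between classes, signs changed for Hilpda (arterial-like against lymphatic-like cells, -0.29 to 0.19), Lipe (arterial-like against venous-like, -0.15 to 0.087) and Mgll (venous-like against lymphatic-like, -0.20 to 0.39). Of the other alternatives, 504 of 570 class differences and 285 of 320 group differences of single members kept their direction and their side of the threshold. The cause of these changes was not tested.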
